A study of Dichotomyctere nigroviridis with 22 samples.

Results

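The genes described here are the TRPM (melastatin-type transient receptor potential) cation channels of the green-spotted puffer, *Dichotomyctere nigroviridis*, among which *trpm1b* was the lead. The members were all rows of the ovary and hypothalamus tables whose gene name began with trpm and a number, which gave 7 genes of 20108 listed in either table: *trpm1a*, *trpm1b*, *trpm2*, *trpm3*, *trpm5*, *trpm6* and *trpm7*. All 7 were listed in both organs. A further row, named *hrc*, carries a TRPM5 description and was not a member by this rule. The study asked how phoenixin-14 (PNX-14), a peptide hormone first known for its action on reproduction through the hypothalamus, changes transcript levels in vitellogenic females, that is, females whose oocytes are storing yolk. Fish were given puffer PNX-14 into the muscle, at a dose of 100 ng for each g of body weight, or only the vehicle. After 24 h, RNA-seq libraries were made from 6 PNX-14 treated and 6 control hypothalami and from 5 PNX-14 treated and 5 control ovaries. No genetic change was made in any group, and the age of the fish was not given in the sources used here. The labels call the vehicle saline and the ovary samples whole ovaries, whereas the methods give sterile water and ovarian biopsies, so the vehicle and the extent of the ovary sample are uncertain.

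TRPM channels are proteins of the plasma membrane, and in some cells of internal membranes, that let cations pass in response to signals such as oxidants, steroids, temperature, calcium or magnesium. In mammals TRPM1 is the channel of retinal ON bipolar cells, held closed by a glutamate receptor cascade in the dark. It is also made by melanocytes, which are pigment cells. The puffer genome holds *trpm1a* and *trpm1b* as copies of that gene. In mammals TRPM2 passes calcium when ADP-ribose accumulates under oxidative stress, TRPM3 opens to heat and to the neurosteroid pregnenolone sulfate, and TRPM5 carries sodium when calcium rises in taste cells. TRPM6 and TRPM7 join a channel for magnesium and calcium to a protein kinase, and TRPM7 is made in most tissues. The files likewise give *trpm6* and *trpm7* an alpha-kinase domain.

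On the Ensembl TETRAODON 8.0 assembly used by the files, *trpm1b* (ENSTNIG00000008398) lies on chromosome 13 from 7722525 to 7736564 on the plus strand, with an annotated length of 4152 bases. The other copy, *trpm1a* (ENSTNIG00000010220), lies on chromosome 5 from 13206077 to 13215630 on the minus strand, and *trpm7* (ENSTNIG00000010230) follows it 74867 bases further on, from 13290498 to 13307153 on the plus strand. Another member on chromosome 5, *trpm5* (ENSTNIG00000009596), lies from 11439738 to 11450905 on the plus strand. On the minus strand of chromosome 2, *trpm2* (ENSTNIG00000016460) spans 15047275 to 15056915, and on the plus strand of chromosome 12, *trpm3* (ENSTNIG00000003890) spans 975682 to 1010654. The gene *trpm6* (ENSTNIG00000004554) is on unplaced sequence, from 70557478 to 70573774 on the plus strand.

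Levels are given as FPKM, the fragments of a gene scaled for its length and for the depth of the library, so that genes can be compared with each other. Counted reads per sample were 9140910–10962243 in PNX-14 treated and 9652996–12729314 in control hypothalami, and 11794062–15297852 in PNX-14 treated and 11756975–15735216 in control ovaries. Markers fitted the labelled organs, since 10 neuron markers summed to 3214–4844 FPKM in PNX-14 treated and 3847–4712 FPKM in control hypothalami, against 13.5–20.4 FPKM in PNX-14 treated and 14.2–18.3 FPKM in control ovaries. Some hypothalami also held oocyte transcripts. The 12 oocyte markers reached 9.72–18.2% of their mean ovary level in 5 hypothalami (PNX-14 treated 3 and 4, control 1, 2 and 5) and 0.301–4.06% in the other 7. The hypothalamus results are therefore also given for the 7 samples alone, 4 PNX-14 treated and 3 control. In such bulk samples, fewer cells of a type and less RNA per cell cannot be told apart. The samples are labelled as separate fish of a group, and p-values measure the spread between them.

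The members were chosen by gene name, but *trpm1b* was selected as lead on its difference between PNX-14 treated and control ovaries, so its ovary values are a description, with no test. In PNX-14 treated ovaries 2, 3, 4, 5 and 6, *trpm1b* had 165, 124, 155, 279 and 150 counts, against 7, 5, 2, 6 and 10 counts in control ovaries 1, 2, 3, 5 and 6. As levels these were 3.37, 2.46, 2.90, 4.39 and 2.84 FPKM in PNX-14 treated ovaries, against 0.135, 0.0980, 0.0379, 0.123 and 0.153 FPKM in control ovaries. All 5 treated ovaries lay above all 5 control ovaries, and the lowest treated ovary had 16.1 times the level of the highest control ovary. The mean was 3.19 ± 0.746 FPKM in PNX-14 treated ovaries and 0.109 ± 0.0447 FPKM in control ovaries (SD, n = 5 each), and the fitted log2 fold change was 4.82 (SE 0.33), or 28.2-fold. Over all 14777 genes tested in ovary, 143 (0.968%) had every treated ovary above every control ovary, and only *trpm1b* and an unnamed gene, ENSTNIG00000003883, had a lowest treated level over 2 times the highest control level. The gene passed the filter on low counts through the treated ovaries alone, since the control ovaries held 30 counts of it in sum and the treated ovaries 873.

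**Figure D1:**
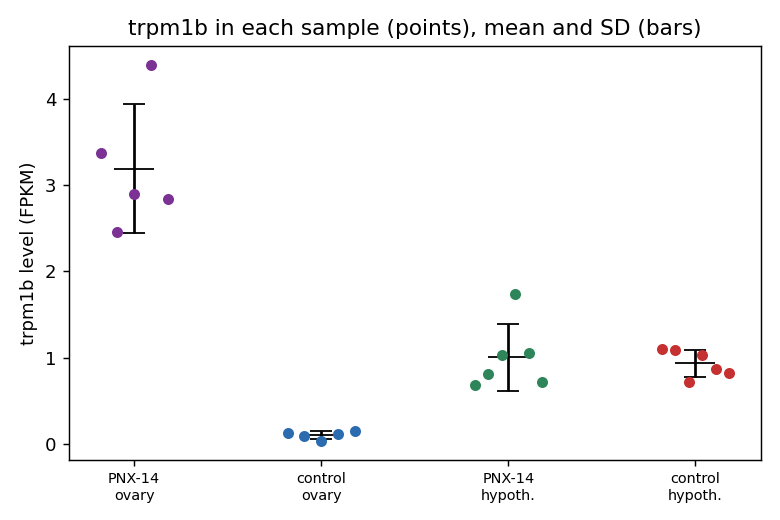
Level of *trpm1b* in FPKM (vertical axis) in each sample (points) of PNX-14 treated ovaries, control ovaries, PNX-14 treated hypothalami and control hypothalami, with the group mean and SD (bars). The 5 treated ovaries sit between 2.46 and 4.39 FPKM, above every other sample, and the 5 control ovaries sit below every hypothalamus.

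In the hypothalamus, which played no part in the choice of the gene, *trpm1b* did not pass the test. Its lowest, median and highest levels were 0.685, 0.923 and 1.74 FPKM in PNX-14 treated hypothalami, against 0.725, 0.951 and 1.10 FPKM in control hypothalami. The groups overlapped, and only PNX-14 treated hypothalamus 4 stood above the control range. The log2 fold change was 0.10 (SE 0.25, 95% interval -0.43 to 0.64, edgeR adjusted p = 0.98). Without that sample it was -0.11, and with the 7 hypothalami low in oocyte transcripts alone it was -0.09, neither of which passed. PNX-14 treated hypothalamus 4 was among the 5 samples rich in oocyte transcripts, which had 0.870–1.74 FPKM of *trpm1b* against 0.685–1.06 FPKM in the other 7, and the part of ovary RNA in its level was not tested.

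Across the 4 groups the *trpm1b* levels fell into 3 ranges that did not overlap. The lowest PNX-14 treated ovary had 1.42 times the highest hypothalamus level, and the lowest hypothalamus had 4.48 times the highest control ovary level. As a description, the log2 difference between control hypothalami and control ovaries was 2.71 (SE 0.31). The log2 response in ovary minus that in hypothalamus was 4.77 (SE 0.40), again with no test because it uses the ovary values that led to the gene.

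The other copy, *trpm1a*, was near the limit of detection in ovaries of both treatments. It had 5, 1, 4, 3 and 0 counts in PNX-14 treated ovaries 2 to 6, against 3, 0, 5, 1 and 0 counts in control ovaries 1, 2, 3, 5 and 6. It did not pass the filter on low counts in ovary, and the 2 groups shared most of their range. A count of 0 allows up to 3 counts, and 3 counts of *trpm1a* were 0.0507 FPKM in treated ovary 5 and 0.0621 FPKM in control ovary 1. Of the FPKM of both *trpm1* copies, *trpm1b* made up 96.8–100% in the treated ovaries, against 27.1–100% in the control ovaries, where a few counts decide the share. Reads of such copies can be split or lost by counting, and how shared reads were treated was not given in the sources used here.

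In hypothalami both copies were present at similar levels. The lowest, median and highest *trpm1a* levels were 0.679, 1.28 and 1.79 FPKM in PNX-14 treated hypothalami, against 0.691, 1.50 and 2.76 FPKM in control hypothalami. The *trpm1b* share of both copies was 38.1–51.3% in treated and 28.3–55.8% in control hypothalami. The log2 fold change of *trpm1a* was -0.35 (SE 0.37, edgeR adjusted p = 0.979). Over the 12 hypothalami, log2 levels of *trpm1a* and *trpm1b* had a Pearson r of 0.66, as a description of samples that also differ in oocyte RNA, while r of *trpm1b* with the other 5 members ran from -0.46 for *trpm5* to -0.12 for *trpm3*.

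None of the other TRPM genes passed the test for PNX-14 in ovary. Of the 6, the 4 that passed the filter (*trpm2*, *trpm5*, *trpm6* and *trpm7*) had log2 fold changes of -0.54 to -0.04 with edgeR adjusted p = 0.814 to 0.979. None passed at an unadjusted p under 0.05 or with DESeq2. The background was as low, at 2 of 14777 genes (0.0135%) called by edgeR, 1180 (7.99%) at an unadjusted p under 0.05 and 29 of 19346 called by DESeq2. These background counts include *trpm1b* itself, which was chosen on this contrast. The median log2 fold change was -0.13 over these 4 and -0.02 over all genes tested.

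The calcium-permeable channel gene *trpm2* had 2.64, 1.15, 0.703, 1.29 and 1.47 FPKM in PNX-14 treated ovaries 2 to 6, against 1.12, 1.14, 2.14, 1.07 and 5.11 FPKM in control ovaries 1, 2, 3, 5 and 6. Control ovary 6 stood far above the other ovaries and the remaining values overlapped. Its log2 fold change was -0.54 (SE 0.47, 95% interval -1.54 to 0.47, edgeR adjusted p = 0.814), and without control ovary 6 it was 0.06. The neurosteroid-gated channel gene *trpm3* was at 0, 21, 11, 1 and 1 counts in PNX-14 treated ovaries 2 to 6, against 0 counts in control ovaries 1, 2, 3 and 5 and 5 counts in control ovary 6. Treated ovaries 3 and 4 had the most, the groups overlapped, and the gene did not pass the filter on low counts in ovary. Without that filter its log2 fold change was 2.79 (SE 1.28, edgeR unadjusted p = 0.0457, adjusted p = 0.658). A count of 0 allows up to 3 counts, or 0.0367–0.0491 FPKM of *trpm3*.

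The taste-cell channel gene *trpm5* had 4.64, 2.11, 3.78, 3.03 and 4.28 FPKM in PNX-14 treated ovaries 2 to 6, against 4.74, 3.84, 4.23, 3.51 and 2.70 FPKM in control ovaries 1, 2, 3, 5 and 6, and the groups overlapped. Its log2 fold change was -0.10 (95% interval -0.63 to 0.43, edgeR adjusted p = 0.955). For the channel-kinase gene *trpm6* the levels were 0.582, 0.758, 0.617, 0.248 and 0.298 FPKM in treated ovaries, against 0.434, 0.764, 0.298, 0.615 and 0.643 FPKM in control ovaries, and the log2 fold change was -0.15 (95% interval -0.99 to 0.69, edgeR adjusted p = 0.959). The related *trpm7* was the most abundant TRPM transcript of the ovary, at 10.1, 11.4, 12.6, 15.4 and 10.2 FPKM in treated ovaries, against 13.7, 8.23, 10.1, 18.6 and 10.6 FPKM in control ovaries. Its interval was the narrowest of the ovary members, with a log2 fold change of -0.04 (95% interval -0.43 to 0.35, edgeR adjusted p = 0.979). The control range of *trpm7* enclosed the treated range.

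**Figure D2:**
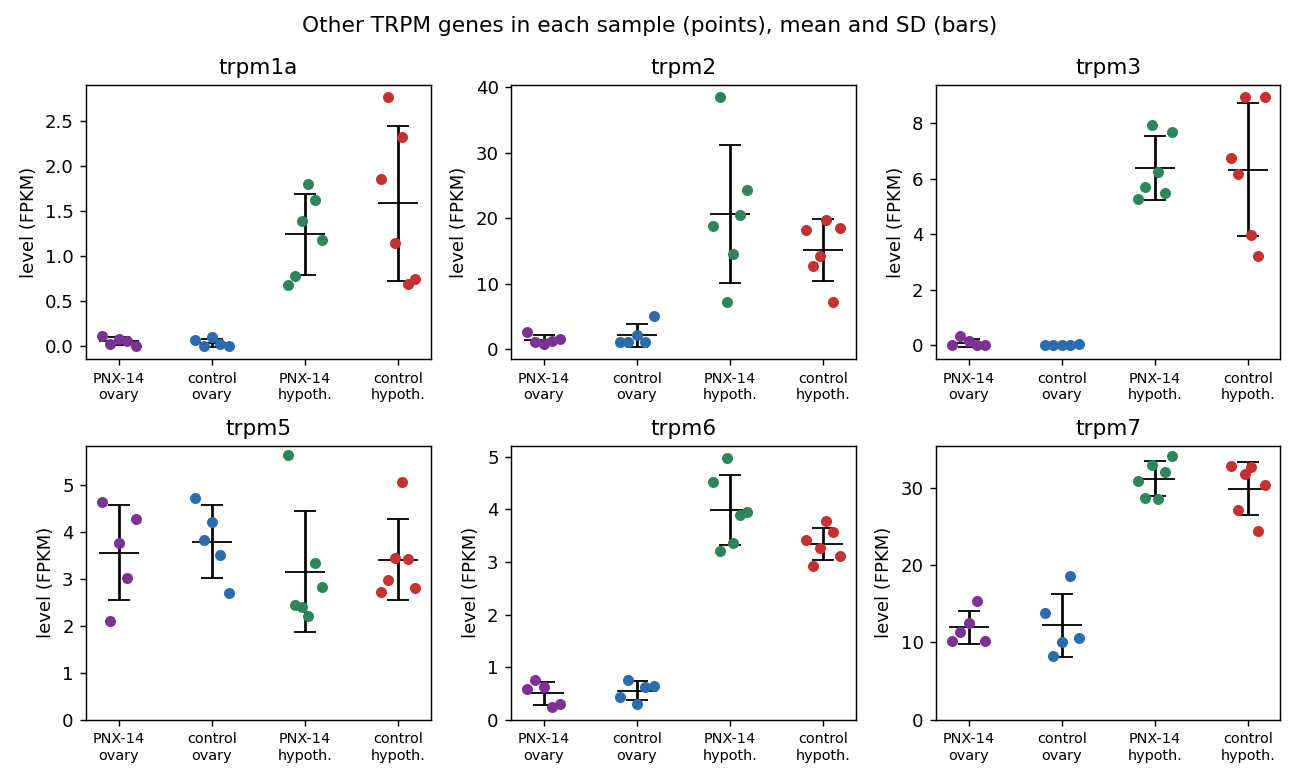
Levels in FPKM (vertical axes, each with its own scale) of the 6 other TRPM genes in each sample (points) of PNX-14 treated ovaries, control ovaries, PNX-14 treated hypothalami and control hypothalami, with the group mean and SD (bars). Treated and control samples overlap in each organ for all 6 genes, and all but *trpm5* are higher in hypothalami than in ovaries.

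In hypothalamus all 7 TRPM genes passed the filter and 0 were called by edgeR, 0 by DESeq2 and 0 at an unadjusted p under 0.05. The background there was 0 of 17126 genes (0.0%) by edgeR, 668 (3.9%) at an edgeR unadjusted p under 0.05 and 5 of 19979 by DESeq2. The smallest unadjusted p was that of *trpm6*, with a lowest, median and highest level of 3.21, 3.92 and 4.97 FPKM in PNX-14 treated hypothalami, against 2.93, 3.35 and 3.77 FPKM in control hypothalami. Its log2 fold change was 0.25 (95% interval -0.03 to 0.53, edgeR unadjusted p = 0.0716, adjusted p = 0.979), and the groups overlapped.

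The gene *trpm2* had 7.23, 19.6 and 38.4 FPKM (lowest, median, highest) in PNX-14 treated samples, against 7.14, 16.1 and 19.8 FPKM in control samples. The 5 hypothalami rich in oocyte transcripts had 7.14–18.1 FPKM of *trpm2* against 14.2–38.4 FPKM in the other 7, and the part of ovary RNA in that difference was not tested. Its log2 fold change was 0.45 (SE 0.35, edgeR adjusted p = 0.979). The levels of *trpm3* were 5.27, 5.97 and 7.94 FPKM in treated, against 3.22, 6.44 and 8.92 FPKM in control hypothalami, with a log2 fold change of 0.02 (95% interval -0.49 to 0.52, edgeR adjusted p = 0.997). For *trpm5* they were 2.21, 2.65 and 5.66 FPKM in treated, against 2.72, 3.20 and 5.07 FPKM in control hypothalami, where 1 high sample in each group set the top. Its log2 fold change was -0.12 (95% interval -0.63 to 0.39, edgeR adjusted p = 0.98). The most abundant member, *trpm7*, had 28.5, 31.4 and 34.1 FPKM in treated and 24.4, 31.1 and 32.8 FPKM in control hypothalami, with a log2 fold change of 0.06 (95% interval -0.14 to 0.26, edgeR adjusted p = 0.979). With the 7 hypothalami low in oocyte transcripts alone, 0 of the 7 genes were called, and *trpm2* was at 0.53, *trpm6* at 0.18 and *trpm1a* at -0.40 on the log2 scale (edgeR adjusted p = 0.654 to 0.822).

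**Figure D3:**
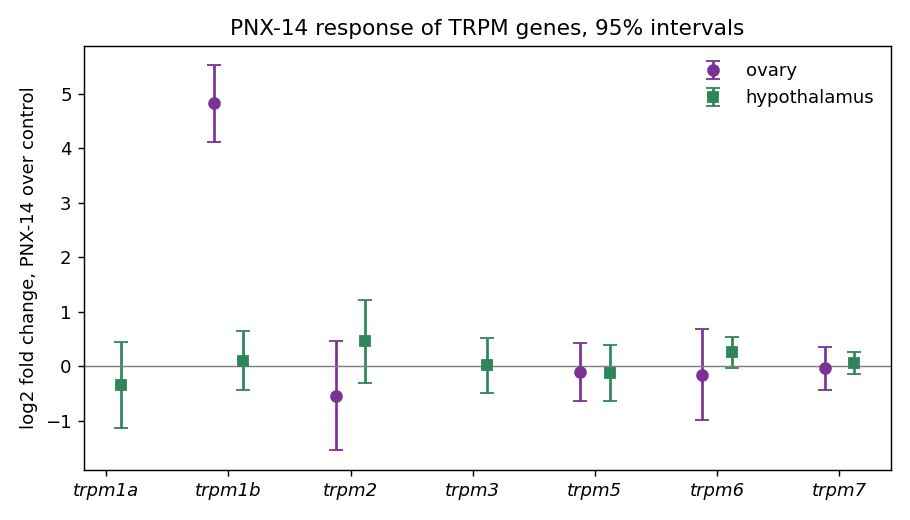
Log2 fold change of PNX-14 treated over control samples (vertical axis) for each TRPM gene in ovary (circles) and hypothalamus (squares), with 95% intervals from the edgeR fits. The ovary value of *trpm1b*, 4.82, and its interval are a description with no test, since the gene was chosen on this contrast. The intervals of all other points include 0. In ovary *trpm1a* and *trpm3* did not pass the filter on low counts and are not drawn.

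The difference between the responses of ovary and hypothalamus was tested for the other 6 members, and edgeR called 0 of them, as did DESeq2. The background was 1 of 17840 genes (0.00561%) by edgeR, 1104 (6.19%) at an edgeR unadjusted p under 0.05 and 25 of 20108 by DESeq2. Each of these background counts includes *trpm1b* itself, whose ovary values led to its choice, so no result for *trpm1b* is read from them. Only *trpm3* was under an unadjusted p of 0.05, with a log2 difference of 2.71 (SE 1.10, edgeR unadjusted p = 0.0218, adjusted p = 0.741). That value rests on 34 counts in sum over the treated ovaries against 5 over the control ovaries.

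Between the organs, 5 of the other 6 TRPM genes were higher in control hypothalami than in control ovaries. The background of this comparison was high, with 83.5% of 17840 genes called by edgeR and 44.3% called as higher in hypothalamus. The median log2 difference over all genes was 0.18, and it moved to 0.33 with another scaling (RLE), so differences of that size depend on the scale. Those called were *trpm1a* (log2 difference 4.98, SE 0.68), *trpm2* (2.47, SE 0.46), *trpm3* (8.25, SE 0.78), *trpm6* (2.24, SE 0.27) and *trpm7* (0.94, SE 0.15), with edgeR adjusted p = 1.67e-09 to 4.6e-05. The levels of each of these 5 did not overlap between the control groups, which held in that direction for 40.9% of all genes. The fitted values of *trpm1a* and *trpm3* rest on 9 and 5 counts in all control ovaries together and depend on the small count that the fit adds. Without control ovary 3 the value of *trpm1a* was 5.79, and without control ovary 6 that of *trpm2* was 3.09 and that of *trpm3* was 11.42, the remaining control ovaries being at 0 for *trpm3*. With only the hypothalami low in oocyte transcripts, edgeR called the same number, 5 of 6.

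The exception was *trpm5*, which averaged 3.41 ± 0.868 FPKM in control hypothalami (SD, n = 6) and 3.80 ± 0.768 FPKM in control ovaries (SD, n = 5), with overlapping samples. Its log2 difference was -0.52 (SE 0.26, edgeR adjusted p = 0.0625). Under RLE scaling it was -0.38 (edgeR adjusted p = 0.169). Over 6 alternatives with edgeR or DESeq2 it ran from -0.64 to -0.17 (adjusted p = 0.0241 to 0.533), and 5 left the outcome the same. The alternative that passed joined same-numbered ovary and hypothalamus samples of a treatment as if from the same fish (-0.64, edgeR adjusted p = 0.0241). The gene *trpm5* also passed as lower in hypothalamus when control hypothalamus 4 (-0.66), PNX-14 treated hypothalamus 1 (-0.53) or 4 (-0.53), or control ovary 6 (-0.61) was left out of the fit over all groups.

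The order of TRPM levels differed between organs and, through *trpm1b*, between the ovary groups. In treated ovaries it ran *trpm7* (11.9 FPKM), *trpm5* (3.57), *trpm1b* (3.19), *trpm2* (1.45), *trpm6* (0.501), *trpm3* (0.105) and *trpm1a* (0.0524), as means, and each neighbour in that order from *trpm5* down overlapped the next. In control ovaries it ran *trpm7* (12.2 FPKM), *trpm5* (3.80), *trpm2* (2.12), *trpm6* (0.551), *trpm1b* (0.109), *trpm1a* (0.0371) and *trpm3* (0.0122), where *trpm1b* overlapped *trpm1a* but not *trpm6*. In hypothalami of both treatments *trpm7* (31.2 FPKM treated, 29.9 control), *trpm2* (20.6, 15.1) and *trpm3* (6.38, 6.32) led, *trpm6* (3.99, 3.34) and *trpm5* (3.15, 3.41) overlapped each other, and *trpm1a* (1.24, 1.58) and *trpm1b* (1.01, 0.939) overlapped each other at the bottom. The ranges of *trpm7* and *trpm2* overlapped in treated but not in control hypothalami, and those of *trpm2* and *trpm3* overlapped in both.

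As a share of the summed TRPM FPKM, *trpm1b* made up 13.5–18.0% (median 14.9%) in treated ovaries, against 0.225–0.797% (median 0.667%) in control ovaries. In hypothalami the share was 0.970–2.98% in treated and 1.14–2.01% in control samples. The sum over all 7 genes was 18.2–24.4 FPKM in treated and 14.1–23.9 FPKM in control ovaries, ranges that overlapped, and 57.8–80.1 FPKM in treated and 43.3–68.6 FPKM in control hypothalami. These sums leave out the *hrc* row with the TRPM5 description. It averaged 4.73 FPKM in treated and 4.80 FPKM in control ovaries, and 4.13 FPKM in treated and 4.26 FPKM in control hypothalami. The largest share was that of *trpm7* in every library but PNX-14 treated hypothalamus 2, where *trpm2* was ahead, and it was 47.2–63.0% in treated and 54.9–77.7% in control ovaries.

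**Figure D4:**
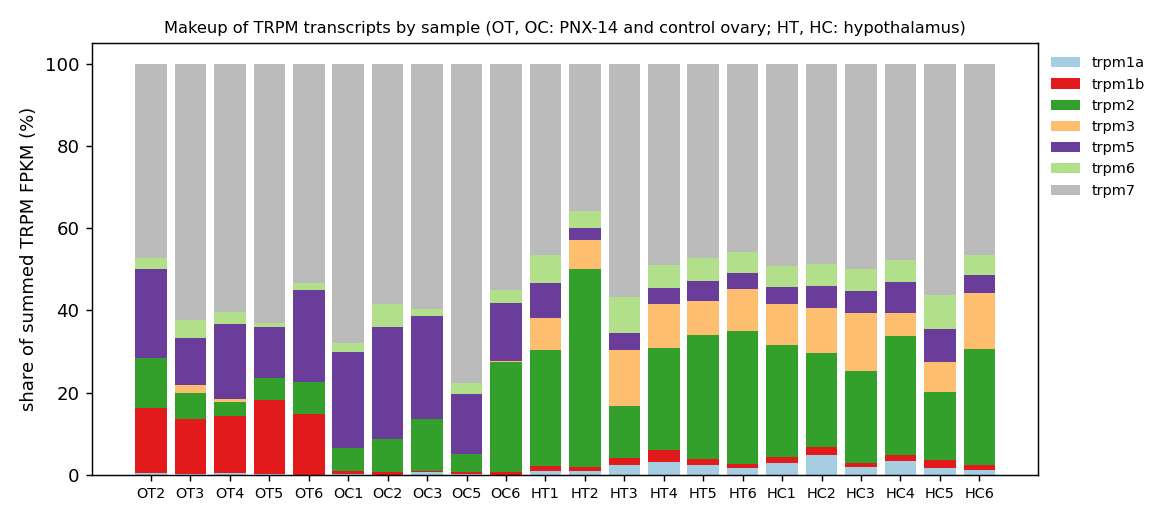
Share of each TRPM gene in the summed TRPM FPKM (vertical axis, percent) of each sample, for PNX-14 treated (OT) and control (OC) ovaries and PNX-14 treated (HT) and control (HC) hypothalami. The *trpm1b* share is 13.5–18.0% in treated ovaries and under 1% in control ovaries, and *trpm2* and *trpm3* take larger shares in hypothalami than in most ovaries.

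The 8 genes tested here beside *trpm1b* on chromosome 13 did not share its ovary values. Of the 5 genes after it, 1 is not reported here. No listed gene overlapped it. The 5 genes before it were *foxb1b*, *bnip2*, an unnamed gene (ENSTNIG00000008395), *OTUD7A* and *klf13*, and those described after it *rps27l*, *DNAJA4*, *idh3a* and *lrrc61*. Of these 9, 8 were tested in ovary and 0 were called by edgeR, by DESeq2 or at an unadjusted p under 0.05, with log2 fold changes of -0.10 to 0.47 (edgeR adjusted p = 0.761 to 0.999). The nearest gene before it, *klf13*, a zinc finger transcription factor gene 9824 bases away, had 3.07, 4.25, 6.61, 5.32 and 4.37 FPKM in treated ovaries, against 3.31, 1.37, 3.45, 5.27 and 3.61 FPKM in control ovaries (log2 fold change 0.47, 95% interval -0.25 to 1.19, edgeR adjusted p = 0.761). The groups overlapped. The remaining neighbour, the forkhead gene *foxb1b*, was too low to test, and in hypothalamus 0 of these 9 were called by edgeR, by DESeq2 or at an unadjusted p under 0.05.

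**Figure D5:**
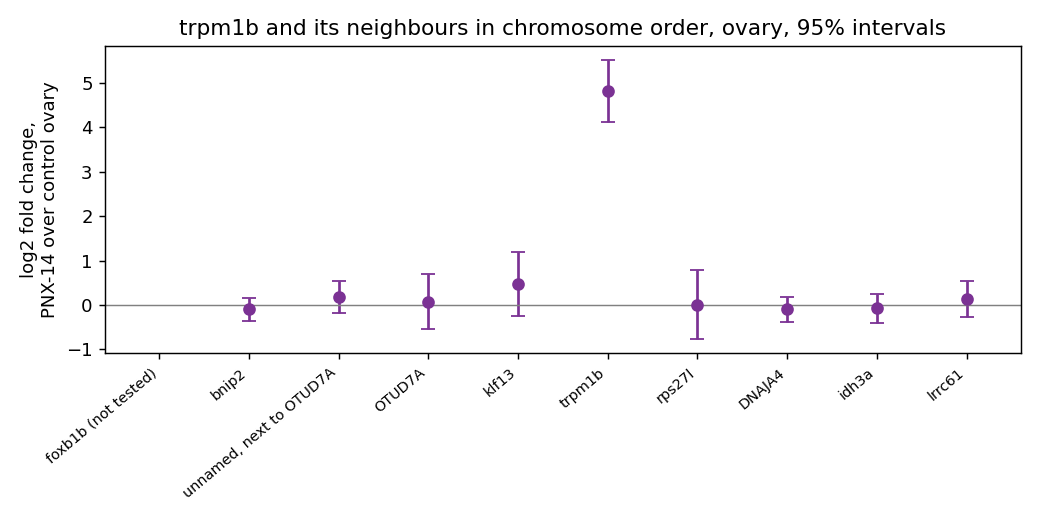
Log2 fold change of PNX-14 treated over control ovaries (vertical axis) for *trpm1b* and 9 genes beside it, in their order along the chromosome and not to distance, with 95% intervals from the edgeR fit. A gene after *trpm1b* that is not reported here is left out. The 8 neighbours tested lie between -0.10 and 0.47 with intervals that include 0. The value of *trpm1b*, 4.82, and its interval are a description with no test, since the gene was chosen on this contrast.

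The genes nearest in pattern to *trpm1b* among those compared are given as a description, and nearest does not mean that they matched it. The comparison over ovaries and that over all 22 samples use the ovary values that led to its choice, so neither is a test. Likeness was the root mean square difference in log2 CPM, counts scaled to a common depth with a small added count, centred on each gene's mean over the samples or on its control ovaries. Over the 10 ovaries the nearest of 14777 genes was the unnamed ENSTNIG00000003883, at 0.46, and the next was *dmbx1a*, a homeobox gene, at 1.70. The unnamed gene had 43, 39, 37, 115 and 94 counts in treated ovaries, against 1, 1, 0, 1 and 0 in control ovaries. In hypothalami it had 66 to 228 counts in the 6 treated samples, against 70 in control hypothalamus 4 and 0 to 5 in the other controls. Its log2 fold change there was 3.19 (SE 0.89, edgeR unadjusted p = 0.00367, adjusted p = 0.979). By contrast *trpm1b* had 26 to 79 counts in treated and 32 to 46 in control hypothalami. Over all 22 samples the nearest genes were *dmbx1a* (1.07), ENSTNIG00000010340 (1.26), *ugt2a6* (1.28), *eef1akmt1* (1.28) and ENSTNIG00000000037 (1.30). Of the 17840 genes compared, none came nearer than the first of these. Within the 12 hypothalami the highest Pearson r with *trpm1b* was 0.92 for *iars2*, a mitochondrial tRNA synthetase gene, followed by ENSTNIG00000011301 (0.90), *ythdf2* (0.89), *tm9sf4* (0.88) and *SELE* (0.87). These are the highest of 17126 genes and are given as a description. Each had its highest hypothalamus level in PNX-14 treated hypothalamus 4, which was also highest in *trpm1b* and rich in oocyte transcripts. All but *SELE* were called lower in control hypothalami than in control ovaries (log2 difference -1.56 to -1.06). The part of that sample and of ovary RNA in these r values was not tested.

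Genes of the ON bipolar cell cascade, in which TRPM1 acts, differed widely in level in ovary. The list of 18 ON bipolar cell partners of TRPM1 includes the glutamate receptor gene *grm6b*, *nyx* and *lrit3a*, and also *vsx1*, which is not part of the cascade. It summed to 72.1–136 FPKM in treated and 82.4–124 FPKM in control ovaries. Most of that sum was *gnb3b*, at 58.7–118 FPKM in treated and 60.0–105 FPKM in control ovaries. The receptor gene *grm6b* had 3–6 counts in treated and 2–14 counts in control ovaries, *nyx* had 0–1 and 0–3 counts, and *lrit3a* was at 0 in all 10 ovaries. In contrast the G protein subunit gene *gnb3b* had 980–1808 counts in treated and 1147–1734 counts in control ovaries, *rgs11*, a gene for a regulator of G protein signalling, had 43–103 and 43–208, and *lrit3b* had 10–31 and 9–34. Of the 7 members tested in ovary 0 were called by edgeR, by DESeq2 or at an unadjusted p under 0.05, with a median log2 fold change of -0.31 against -0.02 over all genes. Of the 11 tested in hypothalamus 0 were called by either tool or at an unadjusted p under 0.05. Between control hypothalami and control ovaries 8 of 11 were higher and 2 lower, against 44.3% and 39.2% of all genes. The log2 difference was 3.29 for *grm6b* (edgeR adjusted p = 5.82e-09), -3.21 for *gnb3b* (edgeR adjusted p = 1.78e-08) and -1.14 for *rgs11* (edgeR adjusted p = 0.00284).

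Genes of pigment cells, the other setting in which TRPM1 is known, likewise differed widely in level in ovary. The melanocortin receptor gene *mc1r* was at 0 in all ovaries, the tyrosinase gene *tyr* had 0–2 counts in treated and 0–2 in control ovaries, *dct* had 0–2 and 0–1, and the melanosome gene *pmela* had 0–5 and 0–5. Higher were the cation exchanger gene *slc24a5*, with 468–565 counts in treated and 402–644 counts in control ovaries, the endothelin receptor gene *ednrba* with 40–127 and 63–197, and a second tyrosinase row, *TYR*, with 11–22 and 3–14. The whole list of 20 genes summed to 34.6–47.7 FPKM in treated and 37.3–49.3 FPKM in control ovaries, ranges that overlapped. Of the 7 members tested in ovary 0 were called by edgeR, by DESeq2 or at an unadjusted p under 0.05 (median log2 fold change -0.16). In hypothalamus 0 of 13 were called by edgeR or DESeq2, and 1 was under an unadjusted p of 0.05, against 3.9% of all genes. It was *mitfb*, a pigment cell transcription factor gene (log2 fold change 0.54, edgeR adjusted p = 0.979).

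Other TRP channels and genes of magnesium and calcium handling did not pass the test either. Among 17 TRPA, TRPC, TRPV, mucolipin and polycystin channel genes, 12 were tested in ovary and 0 called by edgeR or DESeq2. The 1 under an unadjusted p of 0.05, against 7.99% of all genes, was *pkd2*, a polycystin channel gene. It had 2.95 ± 0.528 FPKM in treated and 5.70 ± 2.67 FPKM in control ovaries (SD, n = 5 each, log2 fold change -0.95, SE 0.29, edgeR adjusted p = 0.562). The list's median log2 fold change was -0.26, against -0.02 over all genes. In hypothalamus 0 of 14 were called by either tool or at an unadjusted p under 0.05.

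Of 17 magnesium transport genes, which act beside *trpm6* and *trpm7*, 15 were tested in ovary and 0 called by edgeR or DESeq2, with a median log2 fold change of 0.06. Their FPKM summed to 319–388 in treated and 292–318 in control ovaries, ranges that did not overlap but nearly met. In hypothalami the sums were 244–285 in treated and 265–290 in control samples. Of single genes in ovary, 0.968% had every treated sample above every control, and no such share was computed for sums of lists. The 2 genes under an unadjusted p of 0.05 in ovary, against 7.99% of all genes, were transporter genes. They were *nipa2* (log2 fold change 0.40, edgeR adjusted p = 0.61) and *magt1* (0.38, edgeR adjusted p = 0.588). In hypothalamus 0 of 17 were called by either tool, and 1 was under an unadjusted p of 0.05, against 3.9% of all genes. It was a row named *CNNM3* (ENSTNIG00000013561) with a log2 fold change of -2.66 (edgeR adjusted p = 0.979). Of 40 genes of calcium entry and stores, 30 were tested in ovary and 0 called by edgeR or DESeq2, with a median of 0.04. The 2 under an unadjusted p of 0.05, against 7.99% of all genes, were voltage-gated channel genes. They were *cacna1ia* (log2 fold change 1.34, edgeR adjusted p = 0.564) and *CACNA1D* (-1.04, edgeR adjusted p = 0.61). In hypothalamus 0 of 37 were called by either tool or at an unadjusted p under 0.05.

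Marker levels of the ovary's cell types overlapped between the treatments except for muscle. The 12 oocyte markers summed to 16734–21109 FPKM in treated and 16160–25046 FPKM in control ovaries, and the 9 follicle cell markers to 140–280 FPKM in treated and 176–394 FPKM in control ovaries. The 13 muscle markers summed to 2084–2721 FPKM in treated and 2860–4582 FPKM in control ovaries with no overlap. How often single genes or other lists had every treated ovary below every control was not computed. The muscle markers were chosen after their values were seen, so their sums and counts here are a description and no test of the list. DESeq2 called 1 of the 13 muscle markers, against 29 of all 19346 genes. Of the 9 tested by edgeR 0 were called, and 4 were under an unadjusted p of 0.05, against 7.99% of all genes. Those 4 were *acta2* (log2 fold change -0.64), *tagln* (-0.52) and 2 rows named *ACTA1* (-1.58 and -1.18), each with an edgeR adjusted p of 0.562. The 7 blood cell markers summed to 46.8–68.5 FPKM in treated and 51.9–96.4 FPKM in control ovaries. The part of the muscle difference in the *trpm1b* values was not tested. With the oocyte marker level in the fit, the *trpm1b* log2 fold change in ovary was 4.78, as a description. That marker level overlapped between the ovary groups, and no such fit was run with the muscle markers.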

How the data were processed

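Poly(A) RNA of 22 samples was sequenced, and the authors aligned reads with HISAT2 to the Ensembl TETRAODON 8.0 genome and counted them per gene with featureCounts (versions and use of strand not given in the sources used here). The deposited counts are whole reads per gene without normalization, and in the deposited FPKM the authors divided them by gene length and library size. For *trpm1a*, *trpm5*, *trpm6* and *trpm7* the listed gene lengths do not reproduce these FPKM, so the length behind them is uncertain. This bears on the order and shares of the TRPM genes, not on the fits of counts. Not used were 22 columns of counts divided by size factors and the authors' own fold changes and p-values.

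Counts were tested in R 4.3.3 with edgeR 4.0.16 (quasi-likelihood, robust, TMM, filterByExpr), with Benjamini-Hochberg adjustment over all genes at 0.05. Organs were fitted apart for the treatment, and all 22 samples together for the difference between organs and between responses. DESeq2 1.42.0 was an alternative. The same fits were run on simulated counts with changes set only in genes of higher counts, and the outcome is not given here. Those runs do not cover genes as low as *trpm1a* and *trpm3* in ovary, or a change as large as that of *trpm1b*. Likeness used log2 CPM with a prior count of 2. The text names all TRPM genes, 5 neighbours on each side of *trpm1b* (1 of these is not reported here), the genes most like it, and in each list of related genes those called or else up to 3 with the smallest p. The ON bipolar and pigment cell genes named by their counts, and the muscle markers, were chosen after their values were seen. The genes and lists were chosen with earlier results of these data known. PNX-14 treated and control samples came from different fish, so replicate numbers were not taken as pairs across treatments. Deviations of same-numbered samples had r of 0.02–0.25 in ovary and -0.27–0.30 in hypothalamus. Samples of unlike number were not compared, so r by itself decides nothing on pairing. Both organs came from the same fish, but whether the numbers match between organs was not given in the sources used here. Same-numbered organs had r of 0.08–0.15 in treated (over 0.1 in 4 of 5) and -0.13–0.24 in control fish. The main fits of all 22 samples treated the organs as independent, and only the replicate block joined same-numbered organs of a treatment. Alternatives were RLE scaling, DESeq2, other count filters, a replicate block, an oocyte marker covariate, hypothalami under 5% oocyte markers alone, and leaving out each sample.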

Additional observations from a re-analysis of the deposited data

Results flagged for a closer look

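Of 63 groups of sample values of the TRPM genes and the 9 reported neighbours of *trpm1b*, 8 held 1 sample far from the rest by Dixon's criterion. Chance meets it in about 1 of 20 independent groups of normally spread values. The groups here share samples and some hold counts near 0, so their number cannot be set against that rate. PNX-14 treated hypothalamus 4 had 1.74 FPKM of *trpm1b*, against 0.685–1.06 FPKM in the other 5. It also had 55.5 FPKM of the neighbour ENSTNIG00000008395, against 4.18–20.7 FPKM in the other 5, and it was among the hypothalami rich in oocyte transcripts. That neighbour was called lower in control hypothalami than in control ovaries, with a log2 difference of -3.99 (edgeR adjusted p = 1.22e-05), and the part of ovary RNA in both values was not tested.

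Control ovary 6 had 5.11 FPKM of *trpm2*, against 1.07–2.14 FPKM in the other 4, and 0.0612 FPKM of *trpm3*, against 0 in the other 4. PNX-14 treated hypothalamus 1 had 5.66 FPKM of *trpm5*, against 2.21–3.34 FPKM in the other 5, and 24.5 FPKM of *OTUD7A*, the lowest of its group, against 33.4–38.1 FPKM in the other 5. Control hypothalamus 4 had 5.07 FPKM of *trpm5*, against 2.72–3.46 FPKM in the other 5. PNX-14 treated ovary 2 had 0.360 FPKM of *foxb1b*, against 0–0.0835 FPKM in the other 4.

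The response of *trpm1b* differed between the organs by 4.77 on the log2 scale, ovary minus hypothalamus. This difference was not tested, since the ovary values led to the gene.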

How the results depend on the processing

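The ovary log2 fold change of *trpm1b* was 4.78–4.95 under 5 alternatives and 4.62–4.97 when each ovary was left out, and with at least 10 counts asked of every sample the gene was not fitted. Under every alternative run, 0 of the other TRPM genes and 0 of the reported neighbours of *trpm1b* were called in ovary, 0 TRPM genes in hypothalamus, and 0 of the other TRPM genes for the difference between the responses. In hypothalamus *trpm1b* ran from -0.11 to 0.19 over the samples left out, below 0 only without PNX-14 treated hypothalamus 4, and was -0.0854 with hypothalami under 5% oocyte markers alone. The count of other TRPM genes called between control hypothalami and control ovaries was 3 with at least 10 counts in every sample, since *trpm1a* and *trpm3* were then not tested, and 5–6 over the samples left out.

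Values that were never called changed sign as follows. In ovary *trpm7* was 0.00991 with a replicate block, and leaving out samples gave -0.90 to 0.0638 for *trpm2*, -0.25 to 0.0326 for *trpm5*, -0.35 to 0.0352 for *trpm6* and -0.14 to 0.14 for *trpm7*. In hypothalamus *trpm3* was -0.00141 with RLE scaling, -0.00139 with DESeq2, -0.00970 with at least 10 counts and -0.30 with hypothalami under 5% oocyte markers, where *trpm7* was -0.0329 and its difference between responses 0.0226. Leaving out samples gave -0.12 to 0.14 for *trpm3* and -0.36 to 0.0296 for *trpm5* in hypothalamus, and -0.0706 to 0.31 for *trpm5* and -0.15 to 0.13 for *trpm7* in the difference between responses. The causes were not tested. Between organs the replicate block joined same-numbered ovary and hypothalamus samples of a treatment as if from the same fish. With it *trpm5* was called lower in control hypothalami than in control ovaries, with a log2 difference of -0.64 (edgeR adjusted p = 0.0241), and the block changed no other call of a TRPM gene. Depth limits *trpm1a* and *trpm3* in ovary, which were fitted there only without the filter, at 0.48 and 2.79 (edgeR adjusted p = 0.95 and 0.658), and with DESeq2, at 0.50 and 3.05 (adjusted p = 0.992 and 0.668), with 0 called.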
